A study of Mus musculus with 4 samples.

Results

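Gamma delta intraepithelial lymphocytes are T cells that live within the gut epithelium. Signals of T cell receptor signalling genes were read in these cells, sorted from the colon of conventionally raised C57b/6 mice. The genes were 39 kinases, adaptors, enzymes, phosphatases and NFAT factors that act downstream of the receptor, taken as every probe set whose only platform gene symbol was one of their names. Of the 39, 37 had such a probe set, 87 probe sets in all among 45101 on the array, and 36 passed a filter on dim values and were tested among 12424 genes. Lck and Ptpn7 were not analysed here. The remaining gene, Sh2d1a, which encodes the adaptor SAP, was dim. Its only probe set gave 13.3 and 175 in untreated against 44.9 and 40.5 in DSS samples, below the array median on 4 of 4 arrays.

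Untreated mice gave 2 samples. The other 2 came from mice that received 2% dextran sulfate sodium (DSS) for 5 days and then recovered for 3 days on normal drinking water. DSS is a polymer that injures the colonic epithelium. Each sample was 1 array, and the comparison asks how transcripts of these lymphocytes differ after that injury. All 4 samples share the strain, the conventional housing and the sort, and the labels do not give the animals' age, whether animals were pooled, or whether replicates were separate sorts. The p-values therefore cover no more than the variation among these 4 arrays, part or all of which may be technical, and the number of arrays limits the precision.

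When the T cell receptor binds its ligand, Src family kinases phosphorylate the CD3 chains, and Zap70 docks there and phosphorylates the scaffold proteins Lat and Lcp2 (SLP-76). The complex they form activates phospholipase C gamma, which leads to calcium entry and NFAT, to Ras, and through protein kinase C theta to NF-kB. Phosphatases, ubiquitin ligases and diacylglycerol kinases limit the signal. Intraepithelial lymphocytes are known for an activated surface phenotype together with a raised threshold for receptor triggering.

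No receptor signalling gene passed the test between DSS and untreated samples. As deposited, the median difference of the group lay close to that of all genes, most of which were dimmer than the group. Limma called 0 of the 36 at an adjusted p under 0.05, where 0% of all 12424 genes were called. The smallest adjusted p among them was 0.649. At an unadjusted p under 0.05 there were 2 of 36, Zap70 and Stim1, both lower in DSS samples, which is 5.56% against 7.52% of all tested genes. An exact permutation test of 2 against 2 arrays cannot give a two-sided p below 0.333.

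On the scale of log2(signal + 32), the median difference, DSS minus untreated, was -0.10 over the 36 genes and -0.07 over all tested genes. Single genes ranged from -1.10 to 0.93. The median size of the difference, sign left out, was 0.30 for the 36 genes against 0.47 for all. The median standard error was also smaller for the 36 genes, at 0.43 against 0.51, so these sizes do not compare genes of like brightness. Both DSS arrays lay above both untreated arrays for 3 of the 36 genes, where 17.2% of all genes did so. Both lay below for 7, where 23.8% of all genes did so. So 10 genes did not overlap between groups, against 41% of all genes, and the other 26 overlapped. These members had to pass the filter, so they are not all members.

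Directions over the group depended on how the arrays were scaled. As deposited, 12 estimates were above 0 and 24 below. After quantile normalization the counts were 13 and 23, and 2 genes were higher and 12 lower on both DSS arrays, where 19% and 19.2% of all genes were. The median of the 36 genes was then -0.17 against 0.01 for all genes. After scaling to a common median the estimates were 25 and 11, and 9 genes were higher and 5 lower on both DSS arrays, where 30.8% and 12.5% of all genes were. That scaling moved the median of all genes to 0.25 from -0.07. The median of the 36 genes was 0.24 under it.

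**Figure D1:**
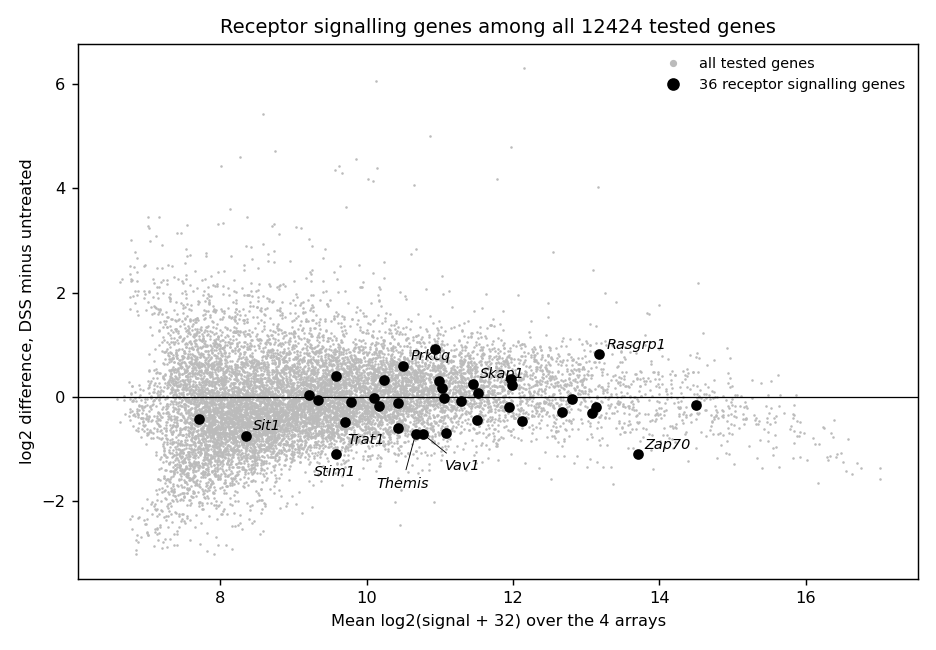
The log2 difference between DSS and untreated samples (vertical) is plotted against the mean log2(signal + 32) over the 4 arrays (horizontal) for all 12424 tested genes (grey) and the 36 receptor signalling genes (black). The black points lie between -1.10 and 0.93, within the grey cloud, and 9 of the 10 genes whose groups of arrays did not overlap are labelled, the 3 higher ones and the 6 lower ones with the largest test statistics (Ppp3cc is the one left out).

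The untreated arrays disagreed with each other more than the DSS arrays did, in these genes as in the rest. Among the 36 genes the replicates lay a median of 0.62 log2 apart without treatment and 0.42 apart after DSS, against 0.68 and 0.36 over all genes. The untreated replicates lay more than 2-fold apart for 8 of the 36, and the DSS replicates for 0. Dgka, which encodes a kinase that removes the second messenger diacylglycerol, had the widest gap. Its signals were 1491 and 9106 in untreated against 4695 and 4004 in DSS samples, so both DSS arrays fell between the untreated ones. Limma called Dgka lower by 1.06 ± 0.29 (SE) without untreated replicate 1 (adjusted p = 0.0202) and higher by 1.52 ± 0.31 without untreated replicate 2 (adjusted p = 0.00549).

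Leaving out an untreated array changed what was called, with the lone untreated array assumed to vary like the DSS arrays. Without untreated replicate 1, limma called 9 of the 36 genes, where 14.4% of all genes were called. Of these, Rasgrp1, Pag1, Nfatc3 and Ppp3ca were higher and Zap70, Sh2d2a, Was, Nfatc2 and Dgka lower. Without untreated replicate 2 it called 1 of the 36, Dgka, where 6.08% of all genes were called. Without either DSS array it called 0 of the 36 and 0% of all genes.

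**Figure D2:**
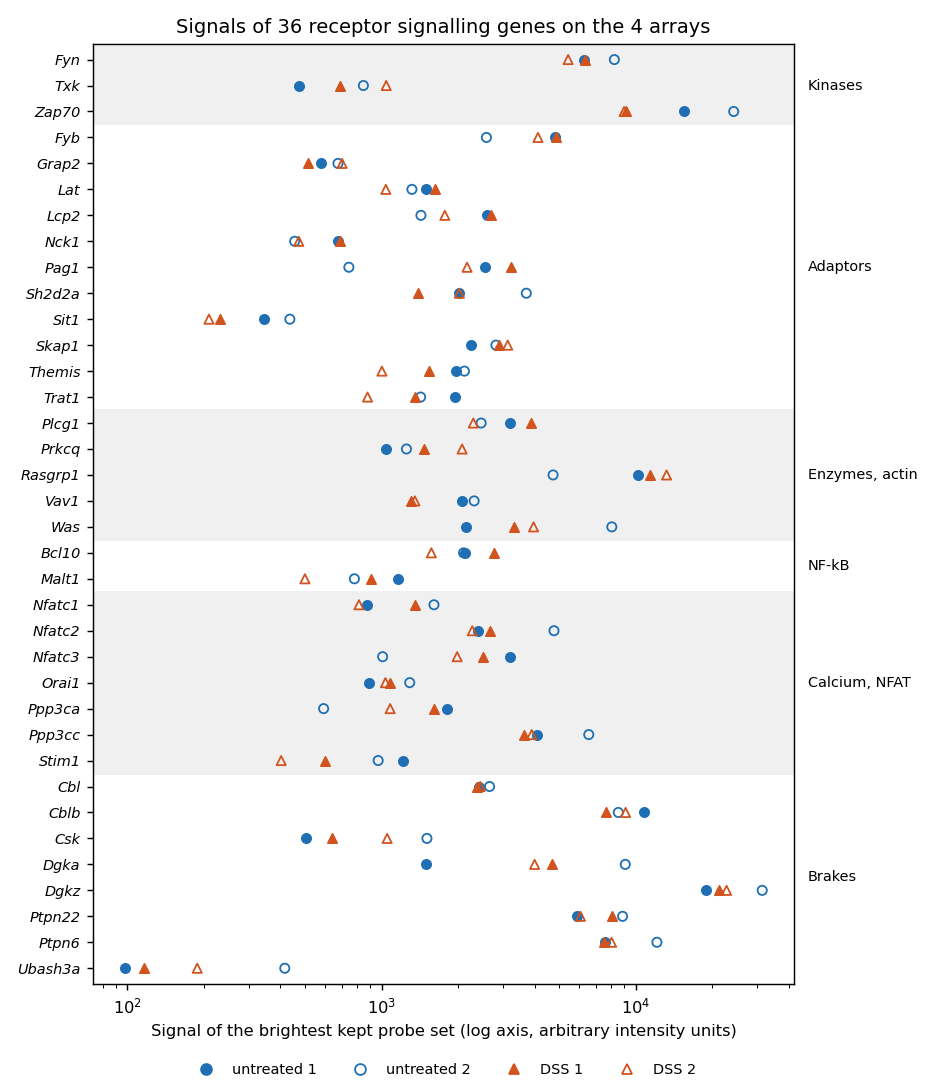
Signals of the 36 receptor signalling genes on each of the 4 arrays are plotted on a log axis, 1 gene per row, grouped by role, with circles for untreated and triangles for DSS samples. Rows should be read across arrays and not against each other, since probe sets differ in brightness for reasons other than transcript level. The circles of Dgka, Ubash3a and Was are the farthest apart.

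Among the genes whose groups did not overlap, Rasgrp1 and Prkcq had the largest test statistics of those higher on both DSS arrays, and Zap70 and Stim1 of those lower on both. The promoters of these 4, 2 in each direction, are shown so that the regulatory sequence in front of each can be read beside its values. The sequences are the 250 bases before the annotated start, 5′ to 3′ on the gene's strand, from RefSeq on GRCm38.p6. For Rasgrp1 this is chr2:117342878-117343127 on the minus strand, and for Prkcq it is chr2:11172132-11172381 on the plus strand. For Zap70 it is chr1:36761548-36761797 on the plus strand, in front of the most upstream of its 3 listed starts, and for Stim1 it is chr7:102267569-102267818 on the plus strand. Capitals mark matches on either strand to GGAAG, the core bound by ETS family factors, to GGAAA, the core bound by NFAT, to TGTGGT, bound by RUNX factors, and to TGANTCA, bound by AP-1.
Rasgrp1: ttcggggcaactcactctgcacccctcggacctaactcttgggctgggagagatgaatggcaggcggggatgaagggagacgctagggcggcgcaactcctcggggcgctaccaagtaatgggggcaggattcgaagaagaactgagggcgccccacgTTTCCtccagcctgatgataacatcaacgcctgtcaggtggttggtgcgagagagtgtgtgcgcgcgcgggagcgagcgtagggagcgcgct
Prkcq: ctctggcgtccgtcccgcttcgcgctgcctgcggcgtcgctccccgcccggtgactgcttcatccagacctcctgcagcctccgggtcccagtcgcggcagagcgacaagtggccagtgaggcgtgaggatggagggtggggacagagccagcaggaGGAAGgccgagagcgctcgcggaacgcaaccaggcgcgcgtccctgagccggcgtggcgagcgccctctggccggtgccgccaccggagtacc
Zap70: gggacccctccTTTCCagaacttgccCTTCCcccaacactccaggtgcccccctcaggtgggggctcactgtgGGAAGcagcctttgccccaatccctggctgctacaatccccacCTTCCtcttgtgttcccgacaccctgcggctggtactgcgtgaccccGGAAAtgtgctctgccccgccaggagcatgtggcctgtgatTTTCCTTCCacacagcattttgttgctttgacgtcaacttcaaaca
Stim1: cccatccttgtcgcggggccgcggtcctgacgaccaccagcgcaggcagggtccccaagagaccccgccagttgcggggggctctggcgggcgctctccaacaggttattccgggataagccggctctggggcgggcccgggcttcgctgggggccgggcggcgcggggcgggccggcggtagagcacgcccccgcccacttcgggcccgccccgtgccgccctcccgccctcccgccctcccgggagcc
The windows differed in these matches. The Zap70 window held 4 matches to GGAAG and 3 to GGAAA, with a shared base where they adjoin. The Stim1 window held 0 matches to any of the 4 motifs and was 78.4% G and C. Rasgrp1 had 1 match to GGAAA and Prkcq 1 to GGAAG. Of the 39 genes, 31 had a window in the table. GGAAG was found in 71% of these 31 and in 63.7% of 27024 promoters of the same length. GGAAA was found in 64.5% and 55.6%, TGTGGT in 9.68% and 14.2%, and TGANTCA in 0% and 6.85%. A match is a description of letters and not a bound site.

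Among the proximal kinases, Zap70 had lower and Fyn and Txk had overlapping signals. Zap70, the kinase that binds phosphorylated CD3 chains, had 15530 and 24322 in untreated against 9147 and 9010 in DSS samples on its brightest probe set. Both DSS arrays lay below both untreated arrays. The log2 difference was -1.10 ± 0.39 (SE, n = 2 per group; limma adjusted p = 0.649). Its other probe sets were also lower on both DSS arrays, with 2726 and 2022 against 1258 and 1377 on the one, and 1149 and 1138 against 1086 and 851 on the other. The brightest is marked _x_at, for probes that may also bind other transcripts. On the brightest probe set without that mark the difference was -0.82. Without untreated replicate 1 the difference was -1.42 (adjusted p = 0.00276), and over the 4 omissions it ran from -1.42 to -0.77. The 271 genes of similar brightness, with mean signals of 8160 to 16352, had a median difference of 0.02.

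Fyn, a Src family kinase that acts beside Lck, had 6253 and 8248 in untreated against 6304 and 5425 in DSS samples. The groups overlapped there, while its dimmer probe set was lower on both DSS arrays, at 1423 and 1880 against 1208 and 1022. Txk, a Tec family kinase of T cells, had 473 and 848 in untreated against 687 and 1044 in DSS samples, with overlap.

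Of the 11 tested adaptors, 1 was higher and 3 were lower on both DSS arrays, where 17.2% and 23.8% of all genes were. Their median log2 difference was -0.06 as deposited. That median was 0.27 with arrays scaled to a common median and 0.03 with quantile normalization. The higher one was Skap1, which couples the receptor to integrin adhesion. Its signals were 2253 and 2820 in untreated against 2902 and 3138 in DSS samples, and the log2 difference was 0.26 ± 0.38 (limma adjusted p = 0.856). A further Skap1 probe set read 1414 and 1557 against 2028 and 2164, also without overlap, and the last read 1750 and 1071 against 2435 and 1524. All of its kept probe sets gave positive differences, from 0.26 to 0.49, with standard errors of 0.37 to 0.45. After quantile normalization the arrays of its brightest probe set overlapped between groups.

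The lower adaptors were Sit1, Themis and Trat1. Sit1, a transmembrane adaptor that dampens receptor signals, had 346 and 436 in untreated against 231 and 209 in DSS samples. It differed by -0.74 ± 0.48 (limma adjusted p = 0.698), and genes with mean signals of 224 to 480 had a median of -0.28. Themis, a regulator of receptor signal strength in thymocyte selection, had 1971 and 2120 against 1537 and 1004, a difference of -0.70 ± 0.41 (adjusted p = 0.68). Its other kept probe sets differed by -0.46 and -0.21, with overlap. Trat1 (TRIM), a transmembrane adaptor that associates with the receptor complex, had 1938 and 1425 against 1356 and 881. Its difference was -0.59 ± 0.42 (adjusted p = 0.715) on that probe set and -0.06 on the other.

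The scaffold proteins at the centre of the pathway gave overlapping signals. Lat, the membrane scaffold phosphorylated by Zap70, had 1491 and 1317 in untreated against 1621 and 1040 in DSS samples. Lcp2, which encodes SLP-76, had 2604 and 1430 against 2701 and 1775. Grap2 (Gads), which joins these scaffolds, had 579 and 674 against 512 and 699. Its second probe set was bright enough only in untreated samples, at 221 and 262 against 19.2 and 24.1, so it passed the filter through that group alone. Fyb (ADAP), a partner of Skap1, had 4835 and 2588 against 4867 and 4127.

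The remaining adaptors varied between replicates or between probe sets. Sh2d2a, an Lck-binding adaptor, had 2009 and 3714 in untreated against 1387 and 2025 in DSS samples. Pag1, a membrane protein that recruits the inhibitory kinase Csk, had 2546 and 744 against 3246 and 2171, and the untreated arrays lay on either side of DSS replicate 2. That Pag1 difference was 0.93, while its other kept probe sets differed by -0.22 and -1.14, with overlap. Nck1, which links receptor signals to actin, had 674 and 455 against 686 and 473 on its brightest probe set. Another Nck1 probe set read 244 and 246 in untreated against 563 and 722 in DSS samples, without overlap, a log2 difference of 1.28 ± 0.44 (limma adjusted p = 0.676 over all kept probe sets). The last kept Nck1 probe set read 273 and 209 against 251 and 76.4, with overlap, a difference of -0.63 ± 0.73.

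Of the 5 signalling enzymes and actin regulators, 2 were higher and 1 was lower on both DSS arrays, beside 17.2% and 23.8% of all genes. Rasgrp1, the exchange factor that activates Ras in response to diacylglycerol, had 10219 and 4734 in untreated against 11379 and 13236 in DSS samples. The untreated arrays were more than 2-fold apart, and untreated replicate 1 lay close to the DSS arrays. The log2 difference was 0.82 ± 0.46 (SE, n = 2 per group; limma adjusted p = 0.679). It was 1.37 without untreated replicate 1 (adjusted p = 0.00392) and 0.26 without untreated replicate 2 (adjusted p = 0.642). Its other kept probe sets were dim and differed by 0.14 and 0.19. A further Rasgrp1 probe set, too dim to pass the filter, was lower on both DSS arrays, at 400 and 167 against 65.0 and 13.4.

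Prkcq, which encodes protein kinase C theta, had 1038 and 1254 in untreated against 1465 and 2076 in DSS samples on its only probe set. The difference was 0.60 ± 0.40 (limma adjusted p = 0.702), and it ran from 0.35 to 0.85 when each array was left out. Vav1, an exchange factor that links the receptor to actin, had 2079 and 2315 in untreated against 1309 and 1353 in DSS samples. That difference was -0.71 ± 0.37 (adjusted p = 0.664). The second Vav1 probe set went the other way, also without overlap, at 432 and 413 against 759 and 684, a difference of 0.73 ± 0.41. Averaged over both probe sets the Vav1 difference was 0.01.

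Plcg1, the phospholipase that makes the messengers for calcium release and protein kinase C, had 3216 and 2467 in untreated against 3862 and 2297 in DSS samples. Was, the actin regulator WASP, had 2155 and 8059 against 3321 and 3966. As with Dgka, both DSS arrays lay between the untreated ones.

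**Figure D3:**
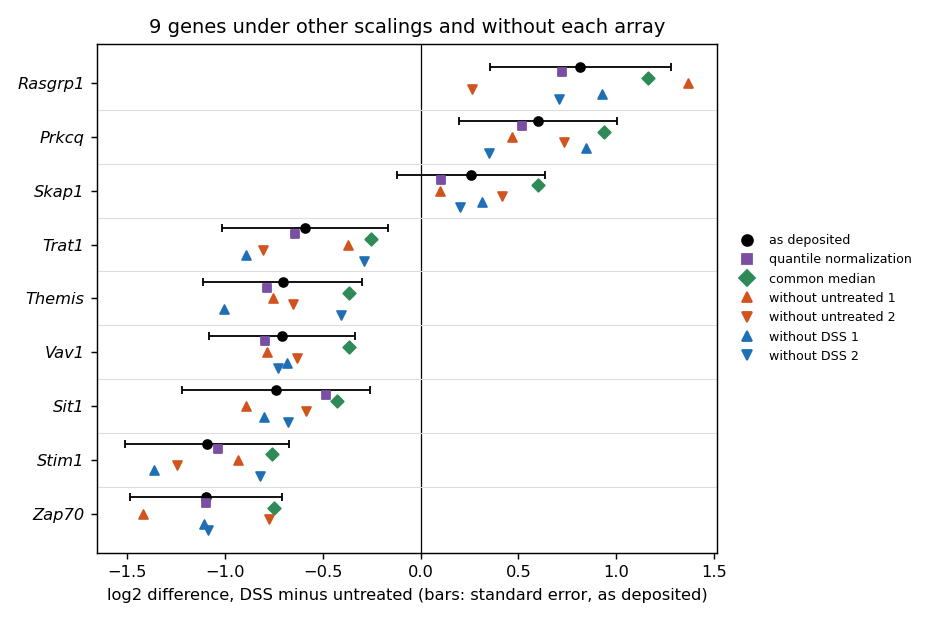
The log2 difference of 9 genes whose groups did not overlap, the 3 higher and the 6 lower ones with the largest test statistics, is plotted as deposited (black, with its standard error), under 2 other scalings and without each array in turn. Each of the 9 kept its sign in all of these, while Rasgrp1 ranged from 0.26 to 1.37 and Zap70 from -1.42 to -0.75.

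Both tested genes of the NF-kB branch overlapped between groups. Bcl10 and Malt1 belong to the complex that carries the signal to NF-kB. Bcl10 had 2138 and 2103 in untreated against 2776 and 1571 in DSS samples on its brightest probe set, so the DSS arrays lay on either side of the untreated ones. That probe set is also marked _x_at. Another Bcl10 probe set read 2262 and 719 against 2531 and 2677, above both untreated arrays, a difference of 1.00 ± 0.56. Malt1 had 1160 and 782 against 908 and 500.

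In the calcium and NFAT branch, 2 of 7 tested genes were lower on both DSS arrays and 0 were higher, near the 23.8% of all genes that were lower and with 17.2% of all genes higher. The median log2 difference was -0.17, or 0.16 after scaling to a common median. Stim1, the calcium sensor of the endoplasmic reticulum that opens Orai channels, had 1211 and 970 in untreated against 600 and 403 in DSS samples. The log2 difference was -1.09 ± 0.42 (SE, n = 2 per group; limma adjusted p = 0.649). Its other probe set read 309 and 488 against 125 and 201, again lower on both DSS arrays, a difference of -1.14 ± 0.56. The brightest Stim1 probe set is marked _x_at, for probes that may also bind other transcripts, and the dimmer one does not carry that mark. Stim1 and Zap70 were the genes with 2 or more kept probe sets that were lower on both DSS arrays on every one of them, 2 of 27 genes. The same share over all genes was not computed, so whether 2 of 27 is unusual is not known. On the third Zap70 probe set the difference was -0.24 as deposited and 0.09 after scaling to a common median.

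Orai1, the channel that Stim1 opens, had 896 and 1291 in untreated against 1082 and 1036 in DSS samples, with both DSS arrays inside the untreated range. Ppp3ca and Ppp3cc encode catalytic subunits of calcineurin, the phosphatase that activates NFAT. Ppp3ca had 1809 and 592 against 1603 and 1081. Ppp3cc was lower on both DSS arrays on its brightest probe set, at 4083 and 6540 against 3641 and 3901. On its other probe set it was higher on both, at 126 and 327 against 520 and 415.

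The NFAT factors overlapped between groups on their brightest probe sets. Nfatc1 had 879 and 1609 in untreated against 1355 and 815 in DSS samples, and its 5 probe sets gave differences from -0.53 to 0.72, with 1 lower and 1 higher without overlap. Nfatc2 had 2388 and 4773 against 2668 and 2276. All 4 of its kept probe sets gave negative differences, from -0.88 to -0.45, and 1 of them was lower without overlap, at 653 and 519 against 334 and 271. Nfatc3 had 3193 and 1010 against 2509 and 1985, with both DSS arrays inside the untreated range.

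On the brightest probe set, the genes listed as negative regulators overlapped between groups in 8 of 8 tested genes, where 41% of all genes did not overlap. Sit1 and Pag1, which also bear on inhibition, were counted with the adaptors, and Sit1 was lower on both DSS arrays. The median log2 difference of the 8 was -0.12. With quantile normalization 3 of the 8 were lower on both DSS arrays, beside 19.2% of all genes. With a common median 1 was higher, beside 30.8% of all genes, and the median was 0.22. Csk, the kinase that holds Src family kinases inactive, had 504 and 1509 in untreated against 637 and 1053 in DSS samples. Ptpn6, the phosphatase SHP-1, had 7548 and 12131 against 7527 and 8043, and Ptpn22, which dephosphorylates Src family kinases and Zap70, had 5857 and 8886 against 8046 and 6067. Dgkz, a diacylglycerol kinase, had 18943 and 31500 against 21240 and 22799. Its other kept probe set was lower on both DSS arrays, at 226 and 359 against 159 and 134. The second kept Ptpn6 probe set overlapped and differed by 0.38, against -0.30 on the brightest.

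The ubiquitin ligases Cbl and Cblb, which mark active receptor complexes for removal, overlapped between groups on their brightest probe sets. Cbl had 2415 and 2662 in untreated against 2379 and 2445 in DSS samples. Cblb had 10785 and 8549 against 7662 and 9130. Each had 2 dimmer kept probe sets, of which 1 did not overlap between groups. For Cbl that one was lower, at 597 and 439 against 192 and 194, while the other read 30.7 and 429 against 125 and 407, with overlap and a difference of 0.63. For Cblb it was higher, at 912 and 666 against 1955 and 1452, while the other read 2328 and 2765 against 2599 and 3233, with overlap and a difference of 0.19. Ubash3a (STS-2), a suppressor of receptor signalling, was dim and spread, at 97.9 and 416 against 117 and 188.

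Probe sets of 1 gene often disagreed. Of the 79 kept probe sets of the 36 genes, 10 were higher and 16 lower on both DSS arrays, where 17.5% and 23.1% of all kept probe sets were. Of the 27 genes with 2 or more kept probe sets, 13 had differences of both signs. In 3 genes, Vav1, Ppp3cc and Nfatc1, 1 probe set was higher and another lower without overlap. The same counts over all genes were not made, so whether these genes disagree more than others is not known. The 8 probe sets that did not pass the filter included 5 that were lower on both DSS arrays. The same share over all probe sets that did not pass was not computed, so nothing is read from that count. Tested genes with mean signals below 224, which did pass the filter, had a median difference of -0.26.

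**Figure D4:**
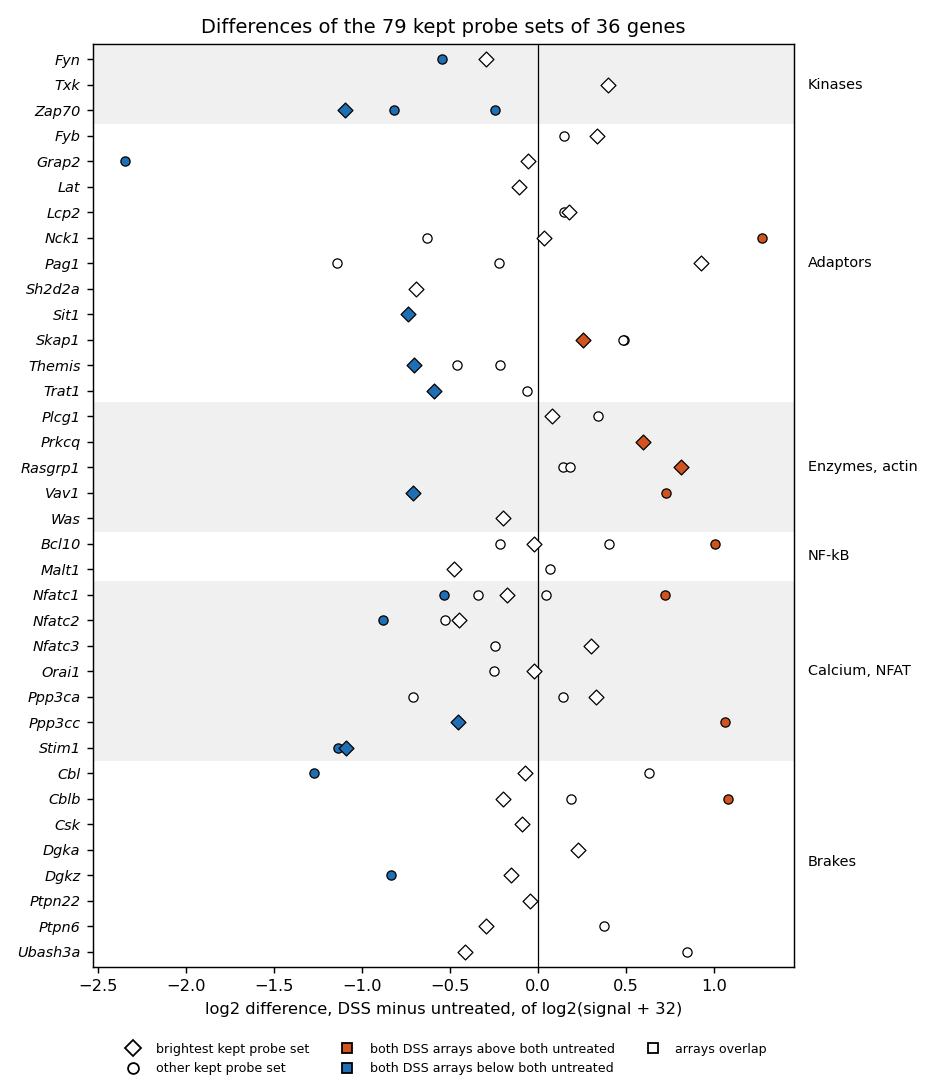
The log2 difference, DSS minus untreated, is plotted for each of the 79 kept probe sets of the 36 genes, 1 gene per row, with diamonds for the brightest kept probe set. Orange marks both DSS arrays above both untreated arrays and blue both below, and rows such as Vav1, Ppp3cc and Nfatc1 carry both colours.

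A list of 62 further genes of the pathway was read in the same fit, of which 47 were tested. Limma called 0 of them at an adjusted p under 0.05, and 4 had an unadjusted p under 0.05, all higher in DSS samples, beside 7.52% of all genes in either direction. The median log2 difference of the 47 was 0.20 against -0.07 for all tested genes. On both DSS arrays 14 were higher and 7 lower, where 17.2% and 23.8% of all genes were. Shb, an adaptor that binds phosphorylated tyrosines, is in the counts of 4 and 14 and passed the filter through the DSS arrays alone, at 44.4 and 52.3 in untreated against 246 and 328 in DSS samples. It was picked out after its values were seen, and without it 3 and 13 of 46 genes were left. On the probe set that stood for the gene, 0 of the 36 receptor signalling genes passed through 1 group alone. With quantile normalization the median of the 47 was 0.26, with 12 higher and 8 lower beside 19% and 19.2% of all genes. With a common median it was 0.54, with 23 higher and 3 lower beside 30.8% and 12.5% of all genes. Of the CD3 chains that pass the signal to Zap70, Cd3d had 3898 and 6791 in untreated against 7419 and 9094 in DSS samples. Cd3g had 10949 and 12540 against 17026 and 13219. Both were higher on both DSS arrays, while Cd3e (7981 and 18964 against 10288 and 11548) and Cd247 (3291 and 4148 against 4627 and 2579) overlapped. After quantile normalization 1 of the 4 chains was higher on both DSS arrays, and under no scaling run was any lower on both.

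The 3 genes of that list with the largest test statistics were Sla, Itpr2 and Ppp3cb. Sla (SLAP), an adaptor that promotes the removal of receptor chains, had 2248 and 1081 in untreated against 6257 and 6241 in DSS samples, so its log2 difference was 1.98 ± 0.46 (limma adjusted p = 0.581). Itpr2, a calcium release channel, had 698 and 642 against 1721 and 1601, a difference of 1.27 ± 0.38 (adjusted p = 0.649). Ppp3cb, a further catalytic subunit of calcineurin, had 1649 and 1660 against 3227 and 3828, a difference of 1.07 ± 0.37 (adjusted p = 0.649). In the calcium part of the list 4 of 8 tested genes were higher and 0 lower on both DSS arrays, beside 0 higher and 2 lower of the 7 calcium and NFAT genes above and 17.2% higher and 23.8% lower of all genes. Whether these lists differ was not tested.

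Markers of other cells differed between the groups in the same samples. They were read without the filter, and of all 18193 genes read that way 14.8% were higher and 25.1% lower on both DSS arrays. Macrophage and dendritic cell markers were higher on both DSS arrays for 15 of 21 measured genes and lower for 1, with a summed signal of 30861 to 33356 in untreated and 90136 to 117163 in DSS samples. Their defining receptor Csf1r had 4342 and 1162 against 33267 and 40991. Bright genes weigh most in these sums. Tyrobp, the 1 lower gene, had 18772 and 22951 against 18026 and 18428, so it made up most of the untreated sum. Ptpn6, Vav1, Was, Lcp2, Fyb and Cbl are also expressed in myeloid cells, as is Sla. The part of such cells in these values was not tested, and in bulk samples fewer cells of a type cannot be told apart from less RNA per cell. Alpha beta T cell markers summed to 1711 to 1897 in untreated and 655 to 783 in DSS samples, with 2 of 5 lower. B cell markers overlapped between groups in 7 of 7 genes. Epithelial markers were higher without overlap for 5 of 14 genes and lower for 1, neutrophil markers for 0 and 3 of 11, mast cell markers for 1 and 1 of 6, and fibroblast and endothelial markers for 0 and 1 of 8.

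The labelled cell type was checked against markers of intraepithelial lymphocytes. All 4 CD3 chains, Cd8a and Itgae (CD103) were above the array medians on all arrays. Of the 15 markers listed for these cells, 12 were measured, and the receptor constant genes Trdc, Tcrg-C1 and Trgc1 were not analysed here. The gamma delta receptor itself was therefore not checked. The summed signal of those measured was 559725 to 633599 in untreated and 327020 to 335307 in DSS samples, with 5 lower and 2 higher on both DSS arrays. Cd8a (21119 and 24033 against 17300 and 10690) and Itgae (101512 and 98460 against 43558 and 43518) were among the 5 lower ones. The 98 genes with mean signals of 32736 or more had a median difference of -0.52. The added hybridisation controls averaged 82269 and 59067 on the untreated and 14372 and 15271 on the DSS arrays. That difference follows the groups, so array processing and treatment cannot be told apart.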

How the data were processed

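Transcripts were measured on 1-colour arrays in 2 untreated and 2 DSS samples. RNA was isolated with the PicoPure kit and amplified with the RiboAmp HS kit, per the labels' protocols. The authors deposited a linear intensity for each probe set and array. The submitters' processing notes name GCOS, whose version and settings no source used here states. Without the lowest and highest 2%, each array's deposited intensities average 500.0, which points to scaling by the authors to a shared trimmed mean. Array medians were 193.8 and 213.9 (untreated) and 157.1 and 163.3 (DSS).

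Of 45101 probe sets, 34958 carried 1 gene symbol in the platform table, 932 several and 9211 none. Signals were analysed as log2(signal + 32). Fold changes on this scale understate changes of dim genes. Probe sets above their array's median on at least 2 arrays were kept, and the kept probe set with the highest mean stood for its gene. Groups were compared with limma 3.58.1 in R 4.3.3 (lmFit, eBayes with an intensity trend), adjusted by Benjamini-Hochberg over 12424 genes at 0.05. The fit was tested on simulated data. Every tested gene was described by its signals. Errors and p-values were given for at most 6 genes each way whose groups did not overlap, ordered by moderated t. They were also given for Dgka, whose groups overlapped, with an untreated array left out. Dgka was picked after its values were seen. Of the further pathway genes the CD3 chains and the 3 with the largest absolute moderated t were named. Probe sets of the members were also fitted beside all 20224 kept ones. Errors given for dimmer probe sets come from that fit, and the dimmer probe sets described were chosen after their values were seen. Alternatives changed the scaling, the pseudocount (1 and 128), the filter, the choice of probe set, the variance model and the replicate block, and left out each array. The members and lists were chosen with earlier results of these data known.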

Additional observations from a re-analysis of the deposited data

How the results depend on the processing

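Limma called 0 of the 36 receptor signalling genes and 0 of the further pathway genes in the 11 alternatives that kept all 4 arrays and in both that left out a DSS array. Over all genes it called 1 when probe sets had to exceed the median on all 4 arrays, 3 with probe sets averaged, 9 with array weights and 67 with a replicate block. Same-numbered replicates deviated together at r = 0.05 across genes, so the numbers are not taken as pairing, and the replicate block called 0 of the 36. Counts of genes lower on both DSS arrays rose to 12 after quantile normalization, where 19.2% of all genes were lower. Genes higher on both numbered 9 after common-median scaling, where 30.8% of all genes were higher. The median was then 0.24, against 0.25 for all genes. With probe sets averaged 5 were higher on both, where 16.8% of all genes were. Vav1 changed sign with probe sets averaged, to 0.010. Probe sets marked _x_at or _s_at may bind other transcripts, and without them Bcl10, Nfatc3 and Ptpn6 changed sign. Of the 36, 4 were then higher and 7 lower on both DSS arrays, where 17.6% and 23.5% of all genes were. When each array was left out, limma called 0 to 1791 genes, 0 to 9 of the 36 and 0 to 9 pathway genes. Of the 36, those higher without overlap numbered 5 to 11 and those lower 11 to 20, where 25.5% to 36.9% and 34.3% to 47.7% of all genes were, and the median difference ran from -0.31 to -0.064. The fewer arrays compared, the less a lack of overlap shows. Rasgrp1 ran from 0.26 to 1.37 and Zap70 from -1.42 to -0.77, each called only without untreated replicate 1. Signals below the array medians limit Sh2d1a, Ubash3a and the dimmer probe sets.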
